A study of Mus musculus with 24 samples.

Results

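The proteasome subunit genes were followed in single haematopoietic stem cells (HSCs), the bone marrow cells that maintain all blood lineages. They were taken by name: every entry of the deposited table of unique molecular identifier (UMI) counts with a name part that starts with Psma, Psmb, Psmc, Psmd or Psme and a digit. This gave 44 members of 27297 entries, of which 19 (Psma and Psmb) form the core set and 25 (Psmc, Psmd and Psme) the cap set. The cap set follows the name rule and so also holds 3 assembly chaperones (Psmd5, Psmd9, Psmd10) and Psmc3ip, a partner protein of Psmc3 that is known for meiotic recombination and is not a subunit. The cells were LSK, CD150+ and CD48- HSCs of mice of the strain -60/DR5-TA-RA-CFP, which carries a cyan fluorescent protein (CFP) reporter named for retinoic acid. No treatment, age or second genotype is given for the single cells, so all comparisons are among cells of 1 strain. Each cell's CFP was recorded at the sort, which allowed a comparison of bright with dim cells, and the title of the series names cell cycle status as its theme.

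The proteasome is the protease that degrades proteins tagged with ubiquitin. Its barrel-shaped core is made of outer rings of alpha subunits (Psma genes) and inner rings of beta subunits (Psmb genes). The beta rings carry the active sites. The regulatory cap binds and unfolds substrates with a ring of ATPases (Psmc genes) and with non-ATPase subunits that recognise and remove ubiquitin (Psmd genes). Activators of the Psme family can take the place of the cap. In immune cells, and after interferon, the catalytic subunits Psmb5, Psmb6 and Psmb7 are replaced by Psmb8, Psmb9 and Psmb10 to form the immunoproteasome. HSCs are known for a low rate of protein synthesis and for their sensitivity to disturbed protein turnover.

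The index record covered 1430 cells on 4 sort plates, numbered 2 to 5, with 345 to 368 cells and 483734 to 563679 UMIs each. Cells were ranked by CFP inside their own plate. The top 20% made up the bright fraction, the bottom 20% the dim fraction and all remaining cells the intermediate fraction, with 286, 286 and 858 cells. The median cell had 1265 UMIs. Median UMIs per cell were 1830 ± 118 (SD, n = 4 plates) in bright cells, 1251 ± 136 in the intermediate ones and 1091 ± 109 in the dim. Genes of S phase and G2/M, counted from a list, held 1.48% ± 0.21 of the UMIs of bright cells, 0.704% ± 0.063 of intermediate and 0.555% ± 0.029 of dim cells. Depth and cycling therefore moved with CFP throughout, and their part in the differences below was tested only through the settings named beside them. All 10 HSC markers of the list used were detected, some of them barely. Slamf1 had 41 UMIs, in 2.5% of cells, Hoxb5 49 and Ly6a 90, while Hlf had the most at 761. Cd48, which the gate excludes, had 1 UMI. Of the 8 genes of the B, T and NK cell list 5 were at 0, among them Cd79a, Ms4a1, Cd3e and Cd3d, while Cd79b had 179 UMIs and Nkg7 had 67. This list summed to 73.7 to 179 counts per 1e6 UMIs (CPM) in bright and 82.2 to 174 CPM in dim libraries. Of the granulocyte and monocyte list, S100a8 and S100a9 had 1 UMI each, while the joined entry of Lyz1 and Lyz2 had 692, Mpo 96, Csf1r 94 and Elane 51. This list summed to 103 to 561 CPM in bright and 311 to 773 CPM in dim libraries. The summed HSC markers were lower in bright cells, at 1199 to 1518 CPM, than in dim cells, at 1768 to 2136 CPM. Haemoglobin and other red cell genes ranged from 280 to 1620 CPM in bright and from 354 to 4232 CPM in dim libraries. The megakaryocyte list summed to 258 to 550 CPM in bright, 165 to 197 CPM in intermediate and 99.4 to 432 CPM in dim libraries. Bright thus lay above intermediate without overlap, and overlapped dim. The endothelium and stroma list summed to 7.37 to 108 CPM in bright and 37.3 to 144 CPM in dim libraries. The part of these other cell types' genes in the results was not tested. Whether the plates share animals is not known here, and they serve as 4 technical replicates of a pooled collection. Strictly they are 1 sample, so every p below speaks of plates and none of mice.

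A short look at promoters preceded the counts, because subunit genes are known to share control by Nrf1 (Nfe2l1) at antioxidant response elements. Of the 44 members, 37 had a promoter in the RefSeq table (build GRCm38.p6; 250 bases before to 50 after the start). The element TGACNNNGC, searched on both strands, was found in 6 of the 37 (16.2%), and in 14.0% of the promoters of all 27025 genes. The CCAAT box, on both strands, was found in 15 of 37 (40.5%), against 41.1% of all genes. The E2F site, searched as TTTCCCGC, TTTGGCGC, TTTGCCGC or TTTCGCGC on both strands, was found in 3 of 37 (8.11%; Psmc2, Psmc4 and Psmb9) and in 2.60% of all genes. The members' shares lay near those of all genes for the first 2 motifs and above them, on 3 genes, for the E2F site. A match is a description of letters and not a bound site. The 3 windows below are those of Psmb5, a catalytic gene with the response element, and of Psmb3, the only member called between bright and dim cells whose promoter is in the table. Capitals mark the motif, and positions count back from the start of the gene.
Psmb5, chr14:54618018-54618058, minus strand, element at -47: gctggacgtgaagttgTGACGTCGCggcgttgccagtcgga
Psmb3, chr11:97703333-97703369, plus strand, CCAAT at -85: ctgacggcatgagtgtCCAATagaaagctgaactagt
Psmb3, chr11:97703375-97703411, plus strand, CCAAT at -43: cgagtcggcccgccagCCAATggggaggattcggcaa

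Few proteasome genes were called between CFP-bright and CFP-dim HSCs. Psmb3, a structural beta subunit, and Psmc3, an ATPase of the cap, were called higher in bright cells, and no member was called lower. Psmc3 passed the threshold after the filter on low counts had been changed, with members' values already seen. With the first filter, by fraction groups, only Psmb3 was called. In the edgeR quasi-likelihood fit over all entries, with plate as a block and Benjamini-Hochberg adjustment, 31 of the 44 members passed the filter on low counts. Of these, 2 were called higher in bright than in dim cells at an adjusted p under 0.05, where 5.8% of the 4652 tested entries were called higher, and 0 were called lower, where 3.33% of entries were. At an unadjusted p under 0.05 there were 9 members and 991 entries. The share of members called thus lay near that of all entries. The log2 fold changes were positive for 8 of 11 core and 17 of 20 cap members, against 2269 of 4652 entries. Their median was 0.09 in the core, 0.36 in the cap and -0.01 over all entries. No member was called by DESeq2, which called 179 entries.

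**Figure D1:**
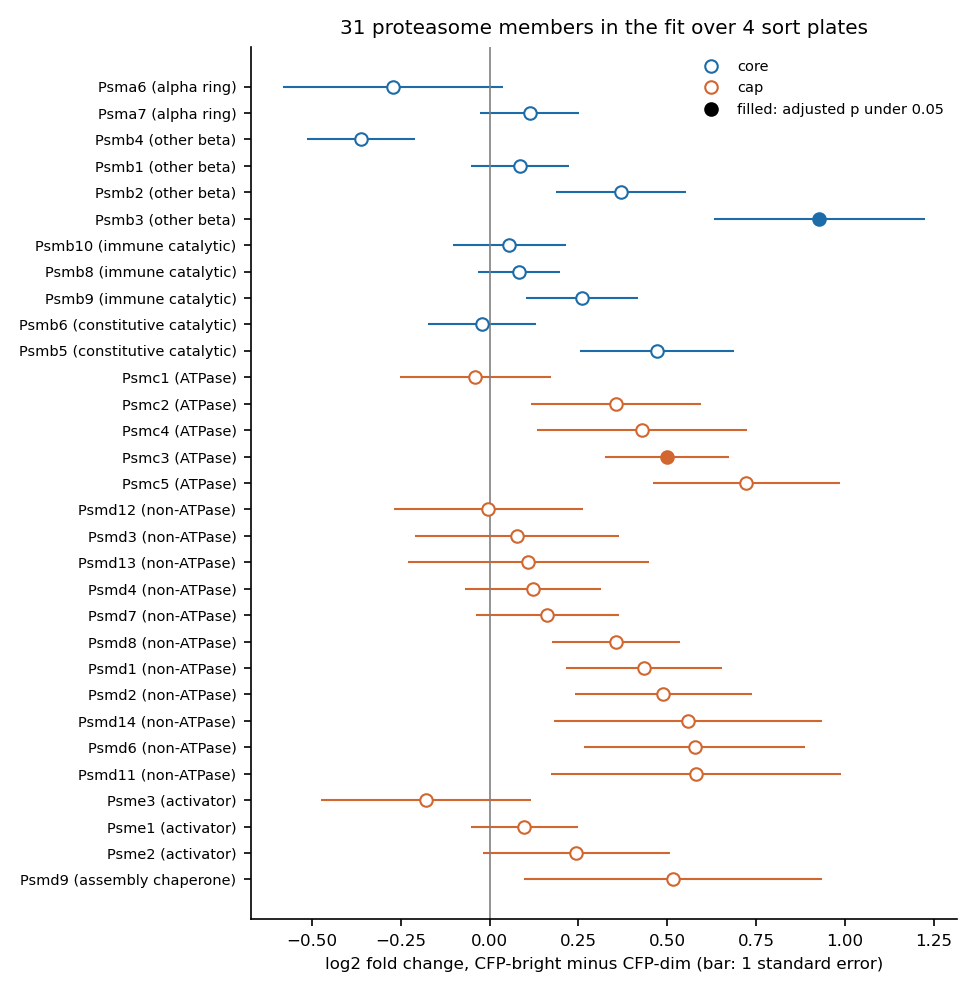
Log2 fold change between CFP-bright and CFP-dim cells (x axis) for the 31 members in the fit, grouped by role (y axis); blue is core, orange is cap, bars are 1 standard error and filled points passed an adjusted p of 0.05. Psmb3 at 0.93 and Psmc3 at 0.50 are the filled points, 6 of the 31 lie below 0, and most bars are wide against the distance from 0.

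Among the beta subunits, Psmb3 had 192, 192, 153 and 182 CPM in bright cells of plates 2 to 5, 127, 158, 159 and 124 CPM in intermediate cells and 74.6, 93.9, 118 and 89.8 CPM in dim cells. The lowest bright plate lay above the highest dim plate. The log2 fold change between bright and dim was 0.93 ± 0.30 (SE; edgeR adjusted p = 0.027). It stayed positive in all 16 alternative settings, from 0.58 to 1.18, and passed the threshold in 6 of them. At 1000 UMIs per cell it was 0.58 (adjusted p = 0.526) and without the most cycling cells 0.65 (adjusted p = 0.636). Psmb2, another structural beta subunit, had 354, 404, 453 and 316 CPM in bright, and 221, 281, 343 and 264 CPM in intermediate cells. Bright was higher within each of the 4 plates, although the ranges overlapped. The fold change between these groups was 0.45 ± 0.14 (adjusted p = 0.026), and it lost the threshold whichever plate was left out, with adjusted p from 0.064 to 0.152. The call held in 4 of the 16 alternatives.

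Psmb4, also a structural beta subunit, had the opposite order. It had 486, 511, 466 and 398 CPM in bright and 597, 563, 694 and 539 CPM in dim cells, so that every bright plate was below every dim plate. The difference of -0.36 ± 0.15 did not pass the adjustment (adjusted p = 0.126). Over the 31 members, 4 had all bright plates above all dim plates, where 6.04% of entries did, and Psmb4 alone had them all below, where 2.58% of entries did. The 4 were Psmb3, Psmb5, Psmd1 and Psmd8. Psmb1 had a log2 fold change of 0.09 ± 0.14, with a 95% interval of -0.19 to 0.36.

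The catalytic genes were not called in any CFP comparison. Psmb5, the chymotrypsin-like site, had 368, 245, 242 and 228 CPM in bright and 186, 199.5, 196.5 and 192 CPM in dim cells. Plate 2 stood far above the others in bright cells, and the difference of 0.47 ± 0.22 had an adjusted p of 0.178. Psmb6, the caspase-like site, gave -0.02 ± 0.15 with an interval of -0.32 to 0.28. Psmb7 had 9 UMIs in all and was not tested. Of the immune subunits, Psmb8 gave 0.08 ± 0.11 (interval -0.14 to 0.31), Psmb9 gave 0.26 ± 0.16 and Psmb10 gave 0.06 ± 0.16. Psmb9 missed the threshold narrowly against intermediate cells, at 0.36 ± 0.13 (adjusted p = 0.055). Without plate 2 it was called there.

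The UMIs of immune over constitutive catalytic genes gave a ratio of 2.48 for bright cells (95% counting interval 2.23 to 2.76), 2.76 for intermediate cells (2.54 to 2.99) and 2.49 for dim cells (2.14 to 2.91). The intervals of bright and dim overlapped almost in full. Psmb7 contributed almost no UMIs to the constitutive side, so the ratio rests on Psmb5 and Psmb6. It says nothing of protein levels.

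Of the alpha ring, only Psma6 and Psma7 passed the filter. Psma7 gave 0.11 ± 0.14 between bright and dim, and Psma6 -0.27 ± 0.31. Psma1 to Psma5 had 11 to 48 UMIs each over all cells and Psma8 had 23, and Psma8 is a near copy of Psma7 whose reads may be shared with it. Psmb11, the thymus subunit, had 0 UMIs.

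Of the ATPases, which thread substrates into the core, Psmc3 had 582, 385, 370 and 445 CPM in bright and 398, 329, 275 and 244 CPM in dim cells. Bright was higher within each plate, while the ranges overlapped. The fold change was 0.50 ± 0.17 (edgeR adjusted p = 0.0486), at the edge of the threshold. Only 2 of 16 alternatives kept the call. The filter by fraction, which was used first, did not give it. Leaving out any single plate ended it, and at 1000 UMIs per cell the fold change was -0.03 ± 0.24. Psmc5 had 287, 186, 172 and 205 CPM in bright and 211, 106, 91.7 and 103 CPM in dim cells. Its difference of 0.72 ± 0.26 missed the threshold (adjusted p = 0.064). With CFP ranked over all plates together Psmc5 was called and Psmc3 was not. Psmc1 gave -0.04 ± 0.21 and Psmc2 0.36 ± 0.24, and Psmc6 had 11 UMIs and was not tested.

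Of the non-ATPase subunits, 10 of 11 had a positive difference between bright and dim, and none was called there. Psmd8 had 398, 385, 427 and 375 CPM in bright, 187, 278, 335 and 372 CPM in intermediate and 236, 340, 327 and 321 CPM in dim cells. All bright plates lay above all others, though plate 5 by little. Against intermediate cells the fold change was 0.42 ± 0.14 (adjusted p = 0.037), and without the most cycling cells 0.01 ± 0.22. The call was also lost without plate 2, at 0.25 ± 0.15, and without plate 3 or plate 4. It held in 4 of the 16 alternatives, where the fold change ran from 0.006 to 0.56. Psmd1, the large scaffold of the base, had 243, 278, 249 and 275 CPM in bright and 186, 211, 210 and 167 CPM in dim cells, a difference of 0.43 ± 0.22 (adjusted p = 0.233). Psmd4, a ubiquitin receptor, gave 0.12 ± 0.19 and Psmd7, the partner of the deubiquitinase Psmd14, gave 0.16 ± 0.20. Of the entries counted together with another transcript, Psmd7 shares its row, as do Psmb5 and Psme4.

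The activators were not called. Psme1 gave 0.10 ± 0.15, Psme2, its partner in the interferon-induced ring, 0.24 ± 0.26, and Psme3, the nuclear activator, -0.18 ± 0.30. Psme4 had 36 UMIs and was not tested. Of the chaperones only Psmd9 was tested, at 0.52 ± 0.42. Psmd5 had 82 UMIs, Psmd10 had 8 and Psmc3ip 58, too few for the filter.

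Bright against intermediate cells gave 2 members called higher, Psmb2 and Psmd8, where 5.67% of entries were called higher, and 0 lower, where 3.29% were. By DESeq2 the number was 0. Intermediate against dim cells gave 0 calls among the members by edgeR and by DESeq2, where 0.0215% of entries were called in either direction, and 3 members had an unadjusted p under 0.05. The standard errors of the members ran from 0.11 to 0.42 between bright and dim, and differences of more than 2 SE, such as those of Psmb4 and Psmc5, did not pass the adjustment. Changes of the size of the SE, and some well above it, were therefore not detectable at this depth.

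**Figure D2:**
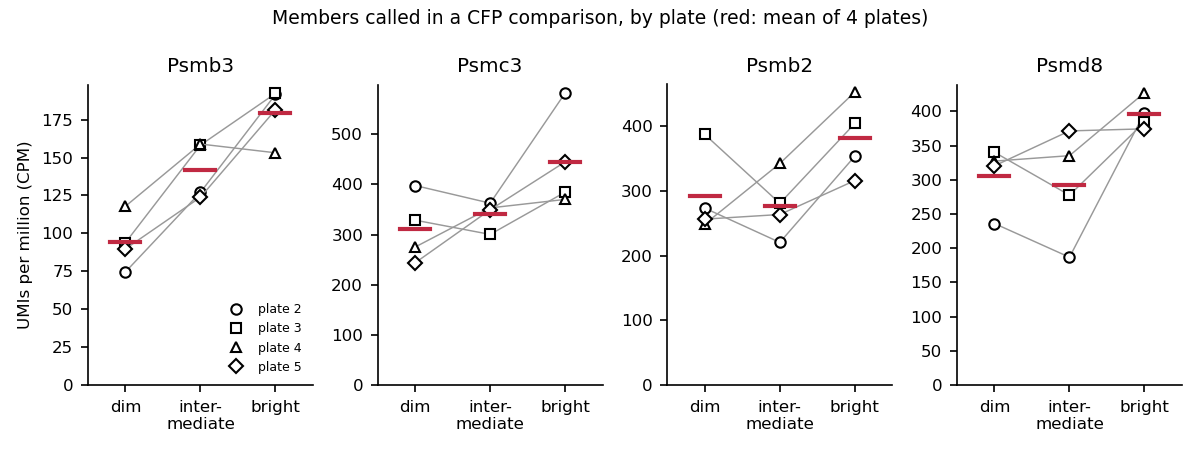
CPM (y axis, from 0) of the 4 members called in a CFP comparison, in dim, intermediate and bright cells (x axis); each symbol is 1 plate, lines join a plate and red bars are means of 4 plates. Psmb3 and Psmd8 have no overlap between bright and dim plates, while Psmc3 and Psmb2 do.

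Summed over genes, the cap took a larger share of the UMIs of bright cells, and the core changed less. Cap genes held 0.457% ± 0.028 (SD, n = 4 plates) of the UMIs of bright cells, 0.379% ± 0.019 of intermediate and 0.374% ± 0.040 of dim cells. The lowest bright plate, at 0.427%, was above the highest dim plate, at 0.424%, by a small margin. Core genes held 0.537% ± 0.003, 0.490% ± 0.018 and 0.50% ± 0.042. Here bright lay above intermediate without overlap and overlapped dim. On the log2 scale the bright to dim ratio of the cap was 0.20, 0.18, 0.43 and 0.36 in plates 2 to 5, and that of the core 0.14, -0.05, 0.11 and 0.24. The cap ratio exceeded the core ratio in each plate, by 0.18 ± 0.11 on average. Among the cap genes, the ATPases had a ratio of 0.40 ± 0.12 and the non-ATPase subunits 0.29 ± 0.17, and the activators 0.14 ± 0.26, which differed in sign between plates.

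At equal depth this difference between cap and core was not seen. With each of the 1025 cells of at least 1000 UMIs thinned to 1000, the cap ratio between bright and dim was 0.06 ± 0.08 and the core ratio 0.10 ± 0.20. The cap ratio then exceeded the core ratio in 2 of 4 plates, by -0.05 ± 0.20 on average. This setting leaves out 31 bright and 127 dim cells. The same cells without thinning gave a cap minus core difference of 0.05 ± 0.24. With cells matched on UMIs, 135 per fraction, it was -0.04 ± 0.30. Without the most cycling cells it was 0.18 ± 0.15, while the core ratio was -0.03 ± 0.17 and the cap ratio 0.16 ± 0.18. In absolute numbers the mean bright cell held 11.5 ± 0.97 core and 9.79 ± 0.77 cap UMIs, and the mean dim cell 5.62 ± 0.89 and 4.20 ± 0.63. Total UMIs differed too, at 614125 over the 286 bright and 320001 over the 286 dim cells. The totals per cell given above are medians and are not on the scale of these means.

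**Figure D3:**
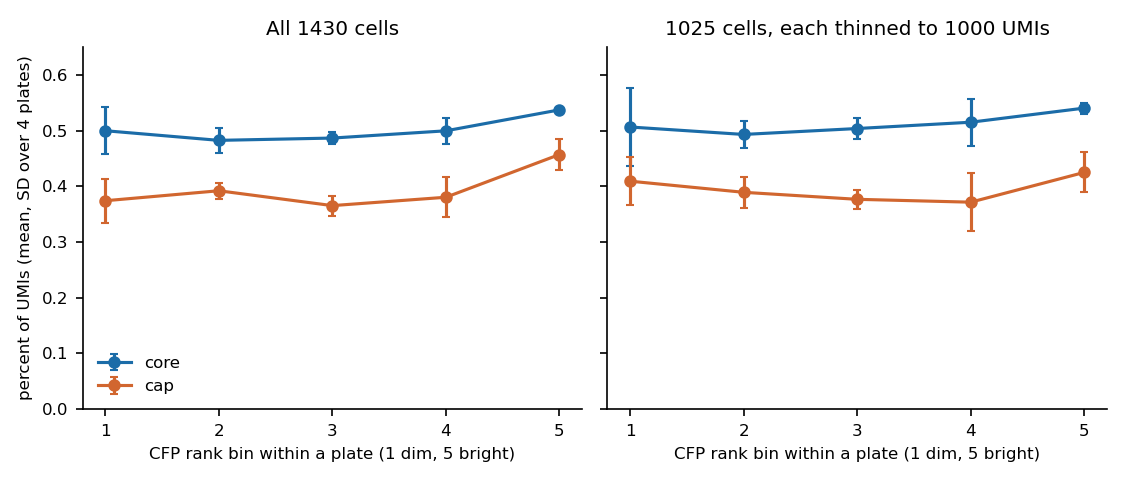
Percent of UMIs (y axis, from 0) from core (blue) and cap (orange) genes in 5 CFP rank bins within plates (x axis), for all cells on the left and at 1000 UMIs per cell on the right; points are means of 4 plates and bars are SDs. On the left the cap is at 0.374% in bin 1 and 0.457% in bin 5, and on the right at 0.409% and 0.425%.

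Across CFP ranks there was no steady slope. The cap share was 0.374% ± 0.040 in the dimmest bin, then 0.392% ± 0.015, 0.365% ± 0.018 and 0.380% ± 0.036, and 0.457% ± 0.028 in the brightest. The core share was 0.50% ± 0.042, 0.482% ± 0.023, 0.487% ± 0.011, 0.50% ± 0.023 and 0.537% ± 0.003. The lower 4 bins overlapped one another. The cap of the brightest bin lay above that of every other bin, while its core overlapped that of the dimmest bin. The brightest bin was also the deepest bin, with a median of 1814 UMIs per cell against 1060 to 1344 in the others.

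The index record also gives each cell a whole number from 1 to 10, called map, whose meaning is not stated. If these groups were made from the same transcripts, a difference between them is no test, so the following are descriptions. Map groups 8 and 9 carried the largest shares of proteasome UMIs among groups 2 to 10. Group 8 (202 cells) had 0.591% core (95% Poisson interval 0.565 to 0.619, counting error only) and 0.445% cap (0.422 to 0.469). Group 9 (188 cells) had 0.542% core (0.521 to 0.564) and 0.498% cap (0.478 to 0.519). The other groups had 0.445% to 0.520% core and 0.348% to 0.374% cap. The core was thus highest in group 8 and the cap in group 9.

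**Figure D4:**
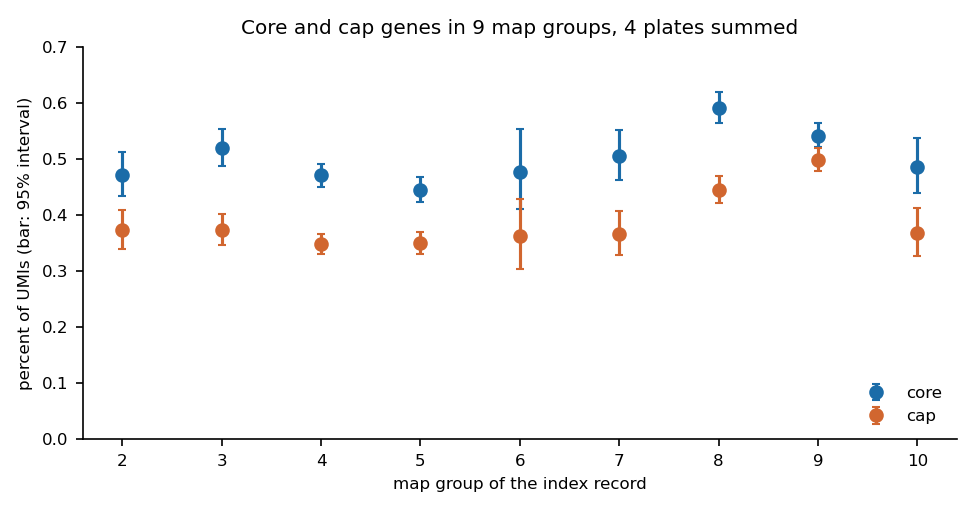
Percent of UMIs (y axis, from 0) from core (blue) and cap (orange) genes in map groups 2 to 10 (x axis), plates summed; bars are 95% Poisson intervals. Core is highest in group 8 at 0.591% and cap in group 9 at 0.498%, and the 2 sets come closest in group 9.

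Groups 8, 9 and 10 also had the highest percentage of S and G2/M UMIs, at 1.13%, 1.57% and 2.34%, against 0.466% to 0.646% in groups 2 to 7. Group 10 (42 cells), the most cycling, had 0.486% core and 0.368% cap, which lay among groups 2 to 7. Depth differed too, with a median of 2341 UMIs per cell in group 9, 1433 in group 8 and 1459 in group 10. Of group 9, 56.9% of cells were CFP-bright. The part of these in the shares was not tested beyond equal depth. Plate make-up differed as well. Plate 2 gave 75 of the 188 cells of group 9, 35 of the 202 of group 8 and 52 of the 86 of group 7. At 1000 UMIs per cell group 8 had 0.620% core and 0.443% cap, and group 9 had 0.530% and 0.476%, so the order of the 2 groups was as before.

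The ratio of core to cap UMIs set group 9 apart from its neighbours. It was 1.09 in group 9 (95% counting interval 1.03 to 1.15) and from 1.27 to 1.39 in the other groups from 2 to 10. Over the plates, group 9 had ratios of 1.05, 1.25, 1.12 and 0.975, and group 8 had 1.36 ± 0.14 (SD, n = 4 plates). The group 9 plates reached into the range of several other groups, such as group 5 with 1.25 ± 0.12. At equal depth the ratio was 1.11 in group 9 (1.01 to 1.22), and group 2 was then also at 1.11 (0.924 to 1.34). With the cap counted without chaperones and Psmc3ip, group 9 had 1.13 and the other groups 1.30 to 1.44. Without plate 3 the ratio of group 9 was 1.04 and without plate 5 it was 1.13.

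**Figure D5:**
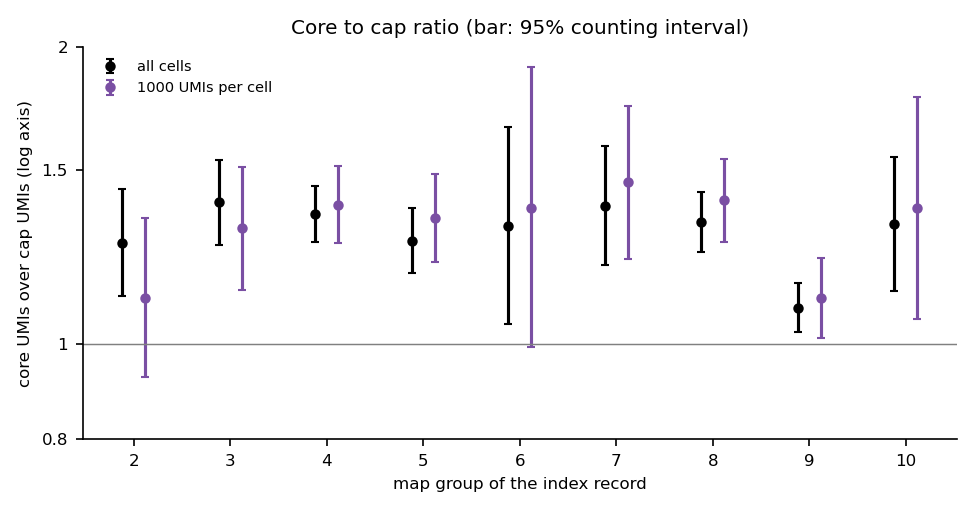
Core UMIs over cap UMIs (y axis, logarithmic) in map groups 2 to 10 (x axis), for all cells in black and at 1000 UMIs per cell in purple; bars are 95% counting intervals. Group 9 is lowest in black at 1.09, and in purple it shares its value of 1.11 with group 2, whose interval is wide.

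Single members did not all follow the sums. Of the 27 members with at least 200 UMIs, the cap had 6 with their highest level in group 9, 4 in group 7, 3 in group 8 and 3 in group 6. The core had 3 in group 8, 3 in group 9 and 1 each in groups 2, 3, 6, 7 and 10. In the cap, Psmd8 had 407 CPM in group 9 against 133 in group 6, Psmd1 had 292 against 134 in group 7, and Psmd4 had 365 against 253 in group 5. Psmc3 was at 486 CPM in group 8 and 476 in group 9, and from 241 to 425 elsewhere. These are levels of 1 gene across groups, and groups 6 and 10 held only 33 and 42 cells. Of the core, Psmb1 was at 853 CPM in group 8 and 573 in group 9. Within group 9 it was at 278 CPM in plate 2 and at 680 to 738 in the other plates. Group 9 drew more of its cells from plate 2 than group 8 did, and the part of this in the gap was not tested. Psma7 had 762 in group 8 and 347 in group 10. Psmb5 was highest in group 9, at 315, and over whole plates it was highest in plate 2, at 318 CPM against 202 to 230. Psmb8 had 1210 CPM in group 8, 1081 in group 9 and 720 in group 6. The ratio of immune to constitutive catalytic UMIs was 2.34 (2.09 to 2.64) in group 9 and between 2.1 and 3.2 in the other groups from 2 to 10.

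Some subunits differed between sort plates by more than between bright and dim cells. Psmb1 had 391 CPM (95% Poisson interval 337 to 451) in plate 2 and 709, 746 and 743 in plates 3, 4 and 5. Psmc1 had 91.0 CPM (66.1 to 122) in plate 2 and 269, 238 and 264 in the others. The alpha subunit Psma6 had 28.9, 187, 122 and 142 CPM, and the deubiquitinase Psmd14 had 24.8, 115, 103 and 85.2. In all 4 genes, chosen after their values were seen, plate 2 was the lowest by more than counting error. Within map group 9, Psmb1 had 278 CPM in plate 2 and 680 to 738 in the others, and Psmc1 had 79.4 against 303 to 415. Within map group 4, the largest, plate 2 was again the lowest, but its counting intervals overlapped those of most other plates. Psmb1 had 396 CPM (289 to 530) in plate 2, 635 (509 to 782) in plate 3 and 553 (407 to 733) in plate 5. Only plate 4, at 741 (588 to 921), lay clear of plate 2. Psmc1 had 114 (60.9 to 196) in plate 2, which overlapped every other plate. These had 224 (152 to 317), 265 (178 to 381) and 207 (123 to 328) in plates 3, 4 and 5. By Dixon's test, plate 2 stood apart for 1 of the 31 tested members, Psmb1, and for 4.43% of the 4652 entries, and each other plate for 0.559% to 1.07% of entries. Psmc1, Psma6 and Psmd14 did not meet that test over whole plates. Other members varied less across plates, such as Psmb9 at 429 to 478 CPM and Psmd1 at 197 to 227. The fit carries plate as a block, so these shifts do not enter the CFP differences as such.

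The genes around the proteasome were mostly not called either. A list of 39 genes of proteasome assembly, ubiquitin, shuttle factors, the Vcp segregase, regulators and antigen presentation gave 36 entries, of which 30 were tested. Between bright and dim cells 0 of the 30 were called higher, where 5.8% of all entries were, and 1 lower, where 3.33% were, with a median log2 fold change of -0.06. The share called lower was thus that of all entries. The gene was Irf1, the interferon regulatory factor known to induce immunoproteasome genes, with 147 ± 43.0 CPM (SD, n = 4 plates) in bright cells, 216 ± 36.8 in intermediate cells and 269 ± 63.5 in dim cells. Its difference between bright and dim was -0.89 ± 0.23 (edgeR adjusted p = 0.00378) and against intermediate -0.57 ± 0.19 (edgeR adjusted p = 0.034). These are values of the main fit, and Irf1 was not followed through the alternative settings. Between bright and dim, those settings called 86 of 2121 entries at equal UMIs and 11 of 2349 without the most cycling cells. The antigen presentation list, to which Irf1 belongs, had a median of -0.26 between bright and dim over 6 tested entries. Tap1 of this list, the peptide transporter of the same region as Psmb8 and Psmb9, went the other way, at 0.26 ± 0.20. Adrm1, a ubiquitin receptor of the cap outside the name rule, gave 1.20 ± 0.45 (edgeR adjusted p = 0.072). The median of its list, assembly and other subunits, was 0.23 over 9 tested entries. Vcp, the segregase that extracts tagged proteins, gave 0.50 ± 0.18 (edgeR adjusted p = 0.056), where the segregase list had a median of 0.07 over 4. Neither passed the threshold.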

How the data were processed

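The deposited UMI table holds raw counts for each gene entry in each well, and the deposited index record holds CFP as log10 values, per the file headers and the values. Capture plates had 384 wells with a barcoded primer in each, per the labels' protocols. The labels and headers do not say how reads became counts. The submitters' processing notes list featureCounts, STAR, bcl2fastq 2.15.0.4, cutadapt, Bismark 0.19.0, DESeq2 and the builds mm10 and mm9, without saying which served the single cells. The labels list 8 single-cell samples and nothing ties a well to one of them, so sort plates stood in as technical replicates. The bulk and bisulphite samples were not used here.

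UMIs were summed per plate and CFP fraction and fitted with edgeR 4.0.16 under R 4.3.3 (1 quasi-likelihood fit of all 3 fractions with plate as a block, after filterByExpr and TMM; residual degrees of freedom 6, prior 297), and DESeq2 1.42.0 as an alternative. The low-count filter was changed from fraction groups to the design matrix after members' values had been seen, which moved Psmc3 past the threshold. CPM are counts per 1e6 UMIs of a library. Intervals are exact Poisson (shares, levels) or Clopper-Pearson (ratios) at 95% and cover counting error only. No doublet caller was run on these sorted wells. The fit was checked on simulated data with the same spread for all entries, no plate shifts and changes only in entries with many UMIs. That check cannot gauge the error of the calls made here, where plates differed and many members had few UMIs. Members named were those called, the 8 of each set with the most UMIs, the catalytic, activator and chaperone genes and Psmc3ip; others are named where values stood out. The members, lists and tests were chosen with earlier results of these data known. The alternatives were DESeq2, no TMM, other filters, no block, each plate left out, equal or matched UMIs, fewer cycling cells, and other CFP limits.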

Additional observations from a re-analysis of the deposited data

Results flagged for a closer look

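Among 118 groups of 4 plates that were checked, 5 had a plate far from the other 3 by Dixon's test, which chance alone gives in about 1 of 20 groups. Psmb5 in bright cells had 368 CPM in plate 2, where the other plates had 228.3 to 245.3. Psmc1 in intermediate cells had 78.5 CPM in plate 2, against 229.5 to 242.1. Psme2 in bright cells had 147 CPM in plate 4, against 184 to 187. Psmb1 over whole plates had 391 CPM in plate 2, against 709 to 746. Psmd12 had 137 CPM in plate 3, against 149 to 151, a small gap in absolute terms.

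The 106 wells without an index record held 25068 UMIs, of which 234 were from the members (0.933%). No comparison used these wells, which had at most 502 UMIs each.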

How the results depend on the processing

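Of the 2 members called between bright and dim cells, none was called by DESeq2, without the plate block (0 calls), at equal or matched UMIs per cell, without the most cycling cells, with the outer 30 percent of CFP or in cells of at least 1000 UMIs not thinned (0 in each). One (1) was called with the outer 10 percent and with the filter by fraction. Leaving out each plate gave 0 to 1 calls, with 0 without plates 2, 3 or 5. Between bright and intermediate, 2 calls became 0 by DESeq2, without a filter, without the block, at equal or matched UMIs, without the most cycling cells and with the outer 10 or 30 percent, 1 in cells of 1000 UMIs or more, and 4 when CFP was ranked over all plates together. Leaving out each plate gave 0 to 1. The filter by fraction was the first choice and was replaced in the main fit after members' values had been seen. The cells not thinned, the reduced cap and the settings for Psmb2 and Psmd8 against intermediate cells were added after seeing the data. The cause of these changes was not tested.

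The summed core ratio became -0.027 without the most cycling cells. The cap ratio became 0.057 at equal UMIs, 0.090 at matched UMIs and 0.16 without the most cycling cells. Leaving out each plate gave 0.07 to 0.16 for the core and 0.25 to 0.33 for the cap. DESeq2, the library size, the filter and the block do not enter these sums, which have no value under them. At equal UMIs the core share of map group 8 was 0.620% and the cap share of the brightest bin 0.425%, and as a mean of single cells the core share of that bin was 0.526%. Cap shares of plates as means of single cells were 0.391%, 0.361%, 0.380% and 0.384% in plates 2 to 5, and 0.361% in plate 3 at equal UMIs.

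Of 362 values of named members under alternatives, 298 kept their side of the threshold, with any change of sign within 1 SE. Most of these were of members not called in the main fit, which stayed uncalled. The calls themselves mostly did not hold. Of 16 alternatives each, Psmb3 kept its call in 6, Psmc3 in 2, Psmb2 in 4 and Psmd8 in 4. Another 47 values lost the threshold and 17 changed sign by more than 1 SE. Among the 17 was Psmc3, which was called in the main fit. The 17, all past no threshold, were Psma7 (-0.043), Psmb6 (0.23), Psmc1 (0.51), Psme1 (-0.060) and Psme2 (-0.053) with the outer 10 percent, Psmb1 (-0.085, and up to 0.20 without another plate) and Psmd7 (-0.062, up to 0.27) without plate 5, Psmb8 (-0.046, up to 0.24) and Psme3 (0.34, down to -0.42) without plate 2, Psmb8 (-0.048) and Psmd8 (-0.033) without the most cycling cells, Psmc2 (-0.015) with the outer 30 percent, Psmd7 (-0.17) at matched UMIs, Psmb6 (0.13) in cells not thinned, and Psmc3 (-0.025), Psmd4 (-0.35) and Psme2 (-0.25) at equal UMIs. Depth limits all of this: dim libraries had 76354 to 85201 UMIs.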
